A study of Rattus norvegicus with 12 samples.

Results

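The IL-6 family cytokines Il6, Il11 and Lif, their receptor subunits Il6r, Il6st, Il11ra1, Lifr and Osmr, and the signalling genes Socs3 and Stat3 were followed in nucleus pulposus cells, which fill the soft centre of the spinal disc. These 10 genes were taken by symbol, and all 10 were among the 12899 genes shared by the deposited tables. Primary cells were grown out of explants from the spines of Wistar rats and given a lentivirus carrying an shRNA. The shTon groups received an shRNA against TonEBP, the osmotic-stress transcription factor encoded by Nfat5, and the PLKO groups received the control virus, so all groups carry a lentivirus and no untransduced cells are compared here. Cells labelled TNF had 50 ng/mL TNF-a, an inflammatory cytokine, for the last 24 h, and cells labelled CTR had none. The groups are therefore shTon_TNF, shTon_CTR, PLKO_TNF and PLKO_CTR, each with 3 RNA-seq libraries titled set 1, 2 and 3. The labels do not say what a set is, how many shRNA sequences were used, or how many animals gave the cells. The main tests compare libraries within sets, so they measure how far these differences vary from set to set. That spread may be technical. Comparisons of TNF-a and of the shRNA share groups, PLKO_CTR among them, while the TNF-a comparisons share no libraries with each other, nor do those of the shRNA. The design asks how these genes respond to TNF-a, how they differ with the TonEBP shRNA, and whether the shRNA alters the TNF-a response.

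IL-6 family cytokines signal through receptor complexes built on gp130, the subunit encoded by Il6st. A ligand-specific partner such as the products of Il6r, Il11ra1, Lifr or Osmr completes the complex, JAK kinases then activate STAT3, and STAT3 induces Socs3, which feeds back to inhibit the pathway. IL-6 is a known inflammatory product of degenerating discs, IL-11 acts on stromal and bone cells, and LIF is named for its action on leukaemia cells.

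The 250 bases upstream of the annotated start of Il6 and Il11 are shown because these ligands passed the test both with TNF-a and with the shRNA, Il6 in the TNF-a-treated pair and Il11 in both pairs. They come from RefSeq, build GRCr8, where 8 of the 10 members matched an entry and Lif and Il11ra1 did not. Il6 lies on the minus strand at chr4:5894576-5894825, and Il11 on the plus strand at chr1:78098372-78098621. Capitals mark the matches to the searched motifs.
Il6: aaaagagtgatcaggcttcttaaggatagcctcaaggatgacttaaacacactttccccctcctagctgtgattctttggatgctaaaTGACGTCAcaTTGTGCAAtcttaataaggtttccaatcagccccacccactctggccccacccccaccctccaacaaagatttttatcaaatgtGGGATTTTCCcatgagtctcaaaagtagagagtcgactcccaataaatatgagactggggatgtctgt
Il11: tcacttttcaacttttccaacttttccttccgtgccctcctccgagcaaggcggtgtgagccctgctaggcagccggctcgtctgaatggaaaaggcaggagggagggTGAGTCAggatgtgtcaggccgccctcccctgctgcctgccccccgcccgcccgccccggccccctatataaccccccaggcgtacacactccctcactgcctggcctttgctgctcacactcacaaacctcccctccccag
Both strands were searched for the NF-kB consensus, AP-1 (TGANTCA), CRE (TGACGTCA), C/EBP (TTGCNNAA), STAT (TTCNNNGAA) and the TonE consensus, the element bound by TonEBP. Upstream of Il6 were a CRE match at -162 to -155, a C/EBP match at -152 to -145 and an NF-kB match at -68 to -59, counted from the start site. Upstream of Il11 was an AP-1 match at -142 to -136. None of these matches overlapped another. Of the 8 member windows, 2 held the NF-kB consensus (Il6 and Socs3) and 2 the AP-1 motif (Il11 and Osmr). Of 33469 promoter windows of the same length, 1.59% held the CRE, 9.22% the C/EBP motif, 3.54% the NF-kB consensus and 6.34% the AP-1 motif. The STAT motif, in 7.67% of windows, and the TonE consensus, in 5.17%, were not matched in the 8 member windows, which says only that these letters are not there.

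Listed genes received 7160042 to 18645538 reads per library, and the lowest count of any member in any library was 27 reads, for Il11. Levels are given below as normalised reads on 1 scale across the 12 libraries, in the order set 1, set 2, set 3. Each fold change comes from log2(value + 1), and those of the 3 deposited pairs use the deposited normalised values, which shift a log2 ratio by at most 0.012 from that scale. Levels are not compared between genes, since they are not divided by length. The target Nfat5 had 1695, 499.7 and 231.7 normalised reads in shTon_TNF, against 641.5, 1092 and 483.1 in PLKO_TNF, so the set 1 library labelled shTon_TNF goes against its label. Over the 3 sets with TNF-a the log2 fold change of Nfat5 was -0.26 (adjusted p = 0.799). The authors' deposited table has -0.03 (0.987), so a knockdown was not shown in that pair. Without set 1 it was -1.09 (0.00941). In shTon_CTR it had 457.8, 457.0 and 287.6, against 685.0, 1363 and 1818 in PLKO_CTR, lower in each of the 3 sets, with an adjusted p of 0.0963 by limma and a log2 fold change of -1.19 (adjusted p = 4.57e-05) in the authors' deposited table. The sets differed in cell-type markers. The summed level of 10 skeletal muscle markers was 40850 to 93050 in set 1, 15690 to 28580 in set 2 and 171.2 to 256.4 in set 3. Among the muscle markers, Myog, Tnnc2 and Myh1 were at 0 in the set 3 libraries. Of 12 markers of the nucleus pulposus and notochord, 7 were read, with a summed level of 8864 to 16770 in set 1, 6307 to 9990 in set 2 and 3650 to 7519 in set 3. They did not move as 1 list, since the keratin Krt8 was at 1329 to 2278 in set 3 and at 64.2 to 209.1 in sets 1 and 2, and Car3 was at 3.03 to 45.8 in set 3 and at 2680 to 13350 in sets 1 and 2. The summed level of 7 fibroblast markers was 28030 to 41090 in set 3 and 56340 to 185900 in sets 1 and 2. Of these, Pdgfra went the other way in PLKO libraries, at 12020 to 17730 in set 3 and 2030 to 5855 in sets 1 and 2. The markers Krt18, Krt19, T, Car12 and Noto were not analysed here. In bulk RNA, fewer cells of a type and less RNA per cell cannot be told apart.

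The sets also differed in the cytokines. In a limma fit over the 12 libraries, 45.4% of genes differed among sets, and so did 5 of the 10 members. Il11 differed most among sets (adjusted p = 1.17e-06) and was lower by 3.62 on the log2 scale in set 3 than in set 1, with higher values in set 2. Lif (adjusted p = 8.38e-05), Il6 (0.00916), Socs3 (0.0188) and Lifr (0.0328) also differed among sets. Each comparison below therefore sets libraries against those of the same set. With the set left out of the model, limma called 0 of the 10 members in each of the 5 comparisons, with 2 or 3 members at an unadjusted p under 0.05 in each comparison of a pair of groups. That p was reached by 5.12% of genes with TNF-a in shTon cells, 6.41% with TNF-a in PLKO cells, 6.3% with the shRNA and TNF-a and 4.07% with the shRNA alone. Over all genes it then called 0.0486% with TNF-a in shTon cells and 0% in the other comparisons. Without limma's mean-variance trend, 2 of 10 members and 1.16% of genes were called with TNF-a in shTon cells, 0 members and 0.445% of genes with TNF-a in PLKO cells, and 0 members and 0% of genes in both comparisons of the shRNA. In each, 4 members had an unadjusted p under 0.05, as did 17.5% of genes with TNF-a in shTon cells, 25.8% in PLKO cells, and 15.4% in either comparison of the shRNA.

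Il6 had 400.1, 814.9 and 443.6 normalised reads in shTon_TNF and 190.3, 371.8 and 84.6 in shTon_CTR. In control-virus cells it had 1437, 3636 and 1518 in PLKO_TNF and 1187, 977.9 and 248.6 in PLKO_CTR. TNF-a libraries were above their untreated libraries without overlap under either virus, and the shTon_TNF and PLKO_CTR libraries overlapped. Il11 had 2299, 8713 and 240.7 normalised reads in shTon_TNF and 640.6, 1295 and 35.1 in shTon_CTR, while PLKO_TNF had 6503, 31924 and 1049 and PLKO_CTR had 3473, 3959 and 156.0. The groups of Il11 overlapped, although the order PLKO_TNF, PLKO_CTR, shTon_CTR held within each set. Lif, the third ligand, had 623.1, 1725 and 352.8 normalised reads in shTon_TNF and 108.3, 332.2 and 74.2 in shTon_CTR, while PLKO_TNF had 732.9, 3016 and 730.3 and PLKO_CTR had 307.6, 452.7 and 97.8. Its TNF-a libraries lay above the untreated ones without overlap under either virus.

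**Figure D1:**
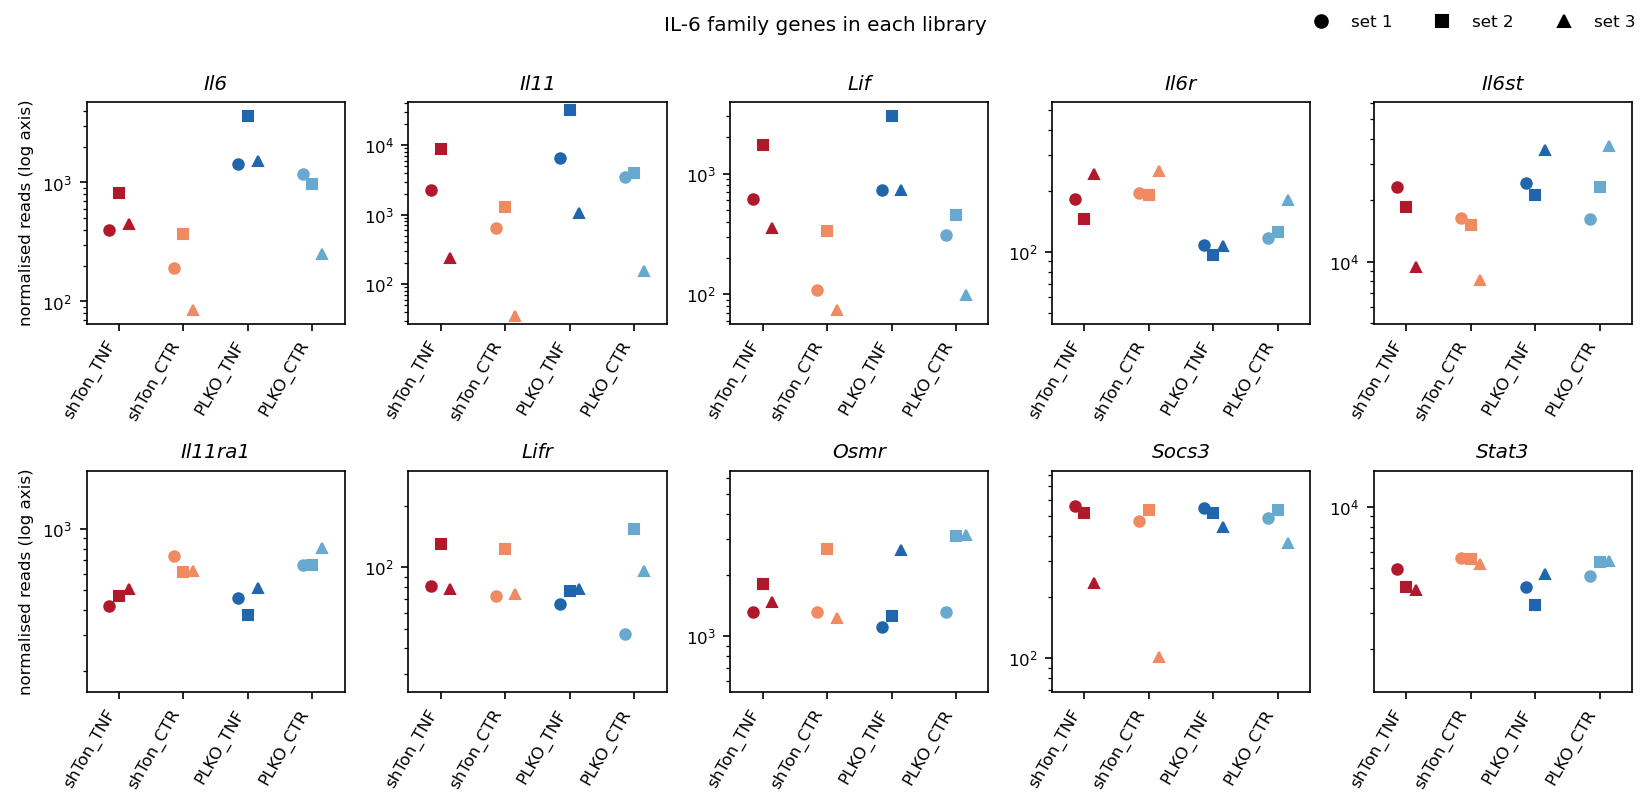
Normalised reads of the 10 members in the 12 libraries on a log axis, by group, with a symbol shape for each set. For Il6, the shTon_TNF libraries sit between 400.1 and 814.9 and the PLKO_TNF libraries between 1437 and 3636.

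With TNF-a in control-virus cells, all 3 ligands rose and the IL-11 receptor subunit Il11ra1 fell. Lif was 4.89-fold higher in PLKO_TNF than in PLKO_CTR (log2 fold change 2.29, SE 0.30, adjusted p = 0.0100). Il11 was 4.66-fold higher (2.22, SE 0.37, adjusted p = 0.0188), and Il6 was 3.01-fold higher (1.59, SE 0.38, adjusted p = 0.0471). Each ligand was higher in 3 of 3 sets, as were 25.3% of all genes tested. The log2 ratios were smallest in set 1, being 0.27 for Il6, 0.90 for Il11 and 1.25 for Lif there. Without set 1 the log2 fold change was 2.25 for Il6 and 2.88 for Il11. Il11ra1 had 459.4, 378.9 and 511.0 normalised reads in PLKO_TNF, against 663.6, 663.5 and 806.2 in PLKO_CTR, and fell by 0.67 on the log2 scale (SE 0.11, adjusted p = 0.0177). Its groups did not overlap. Thus 4 of the 10 members passed, 3 higher and 1 lower, where 9.62% of the 12373 genes tested passed, 4.97% higher and 4.65% lower. Groups did not overlap for 2 higher members, Il6 and Lif, and 2 lower, Il6r and Il11ra1, against 5.95% of genes higher and 5.56% lower. The median log2 fold change was -0.07 over the 10 members and -0.01 over all genes tested. The call of Il6 was lost with edgeR (adjusted p = 0.0515) and DESeq2 (0.0869), which called 9.74% and 11.1% of genes, with a pseudocount of 0.1 (0.0586) and without set 2 (0.0799), and that of Il11ra1 was lost without set 2 (0.0698). In the authors' deposited table the log2 fold changes were 1.93 for Lif (adjusted p = 8.33e-15), 1.07 for Il11 (0.0113), -0.62 for Il11ra1 (0.00240) and 0.73 for Il6 (0.129), where 11.8% of genes had an adjusted p under 0.05. DESeq2 with the set, run here without drawing fold changes toward zero, gave 2.29 for Lif, 2.24 for Il11, -0.66 for Il11ra1 and 1.61 for Il6. The deposited fold changes may thus be an unlike measure, and why they are smaller was not tested.

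The other members did not pass in control-virus cells. Osmr, the oncostatin M receptor subunit, had 1107, 1252 and 2663 normalised reads in PLKO_TNF, against 1314, 3111 and 3130 in PLKO_CTR. Its log2 fold change was -0.60 (adjusted p = 0.118), and without set 3 it was -0.78 (0.0249). Stat3 had a log2 fold change of -0.37 (adjusted p = 0.126) and Il6r, the IL-6-binding subunit, one of -0.41 (0.182). The gp130 gene Il6st had 0.13 (adjusted p = 0.688, 95% interval -0.32 to 0.58), Lifr had -0.27 (0.573) and Socs3 had 0.12 (0.523, interval -0.15 to 0.39).

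In shTon cells TNF-a also raised all 3 ligands. No deposited table holds this pair, so it was tested on the common scale. Lif was 5.18-fold higher in shTon_TNF than in shTon_CTR (log2 fold change 2.37, SE 0.14, adjusted p = 0.000691), Il11 was 5.44-fold higher (2.44, SE 0.20, adjusted p = 0.00202) and Il6 was 2.88-fold higher (1.53, SE 0.26, adjusted p = 0.0306). Each was higher in 3 of 3 sets, as were 19.9% of all genes. Without set 1, whose shTon_TNF library goes against its label, the log2 fold changes were 1.75 for Il6, 2.75 for Il11 and 2.30 for Lif. For Lif the sets lay close together, with log2 ratios of 2.51, 2.37 and 2.23. These 3 of 10 members were called where 3.28% of the 12339 genes tested were called, 1.95% higher and 1.33% lower. Groups did not overlap for 2 higher members, Il6 and Lif, and 2 lower, Il11ra1 and Stat3, against 5.5% of genes higher and 5.04% lower. The median log2 fold change was 0.23 over the 10 members and -0.01 over all genes. The call of Il6 was lost in a fit of all 12 libraries (adjusted p = 0.0676). Il11ra1 had 419.3, 466.4 and 507.2 normalised reads in shTon_TNF, against 739.5, 612.9 and 619.5 in shTon_CTR, again without overlap, but did not pass (log2 fold change -0.50, adjusted p = 0.137). Stat3 had a log2 fold change of -0.35 (adjusted p = 0.212), Il6st 0.34 (0.269), Socs3 0.47 (0.350), Il6r -0.18 (0.588), Osmr -0.11 (0.787) and Lifr 0.11 (0.796).

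The summed nucleus pulposus, fibroblast and muscle markers were lower by value with TNF-a in each set. The sum of 7 nucleus pulposus markers was 11000, 6307 and 4394 normalised reads in shTon_TNF, against 16770, 9990 and 6779 in shTon_CTR, and 8864, 6429 and 3650 in PLKO_TNF, against 12930, 9766 and 7519 in PLKO_CTR. The sum of 7 fibroblast markers was 105100, 150200 and 28030 in shTon_TNF, against 107900, 185900 and 41090 in shTon_CTR, and 56340, 92490 and 34050 in PLKO_TNF, against 70820, 156700 and 39670 in PLKO_CTR. The sum of 10 muscle markers was also lower in each set under either virus, being 40850, 15930 and 171.2 in PLKO_TNF, against 51790, 18910 and 190.4 in PLKO_CTR. The sums did not stand for each marker. Pdgfra was higher with TNF-a in sets 1 and 3 under either virus and lower in set 2. Cdh2 was higher in sets 1 and 2 of shTon cells and sets 1 and 3 of PLKO cells, and lower in the other sets. Col1a1 was at 30570 in set 1 of shTon_TNF, against 18000 in shTon_CTR, and lower with TNF-a elsewhere. Des was higher in set 2 under either virus and in set 3 of shTon cells. The part of these markers in the TNF-a values of the members was not tested.

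The response to TNF-a was not shown to differ between the viruses. The difference of the TNF-a log2 fold change, shTon minus PLKO, was -0.07 for Il6 (95% interval -1.26 to 1.13), 0.23 for Il11 (-0.83 to 1.28) and 0.08 for Lif (-0.72 to 0.89). For Il11ra1, called only in PLKO cells, it was 0.17 (-0.27 to 0.60). By limma the difference passed for 0 of 10 members and 0 of 12310 genes, a background of 0%, with 0 members and 219 genes (1.78%) at an unadjusted p under 0.05. Over all genes edgeR and DESeq2 also called 0, with 248 (2.01%) and 271 (2.2%) at an unadjusted p under 0.05. The interval of Il6 reaches past 1 log2 unit on both sides, so the data leave room for a difference of that size either way.

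**Figure D2:**
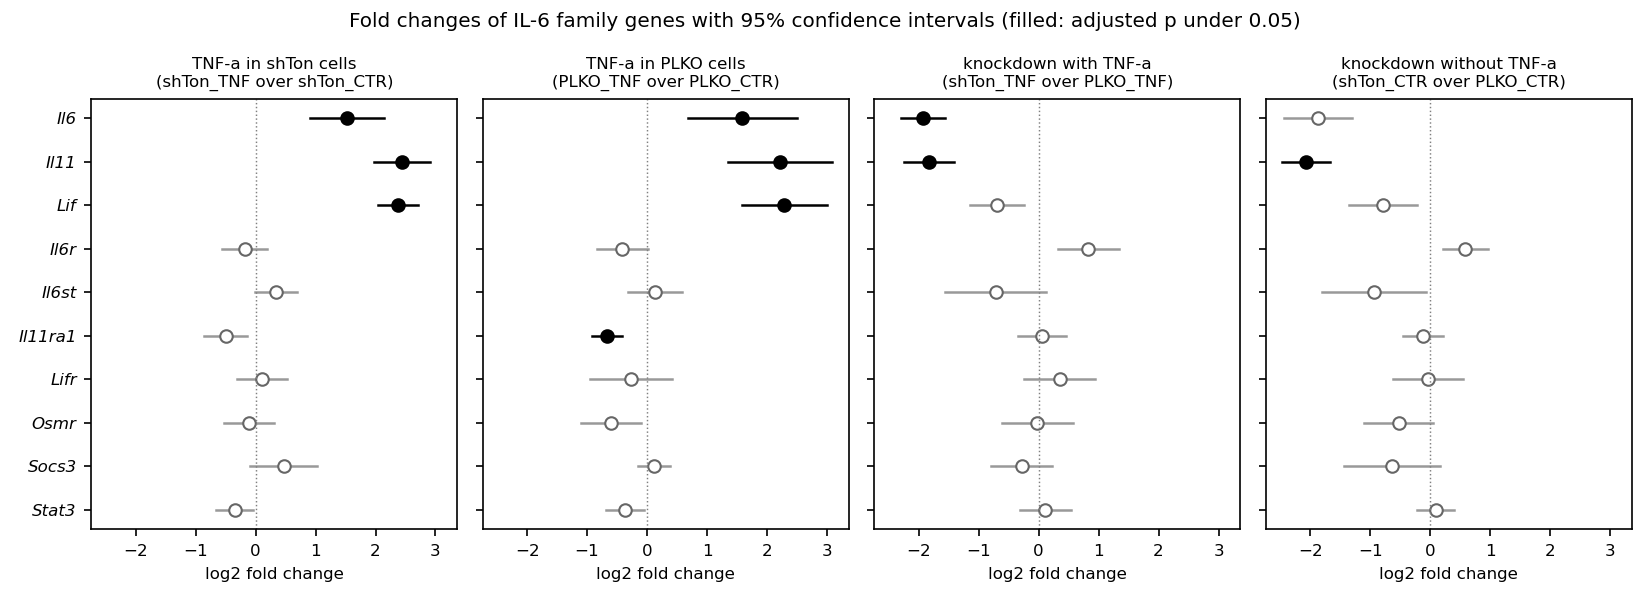
Log2 fold changes of the 10 members in the 4 comparisons of a pair of groups, with 95% intervals from limma, filled where the adjusted p was under 0.05. Il6, Il11 and Lif lie to the right with TNF-a under either virus, and Il6 and Il11 lie to the left with the TonEBP shRNA.

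With the TonEBP shRNA, Il11 was lower with and without TNF-a and Il6 was lower with TNF-a, while the drop of Il6 without TNF-a missed the threshold. Without TNF-a, Il11 was at 0.240 of its PLKO_CTR level in shTon_CTR, or 4.17-fold lower (log2 fold change -2.06, SE 0.17, adjusted p = 0.0259), with log2 ratios of -2.44, -1.62 and -2.12 in the 3 sets. Il6 was 3.63-fold lower by value (-1.86, SE 0.24), lower in 3 of 3 sets, as were 20.2% of all genes. Its groups overlapped, with 371.8 in set 2 of shTon_CTR and 248.6 in set 3 of PLKO_CTR, and Il6 did not pass (adjusted p = 0.0559). It passed with any 1 set left out, at an adjusted p of 0.000134 to 0.0406, and with DESeq2 (2.05e-09), which called 3.6% of genes. It did not pass with edgeR (0.0501), TMM scaling (0.0579), a fit of all 12 libraries (0.0682) or a pseudocount of 0.1 (0.0855). The call of Il11 was lost in a fit of all 12 libraries (0.0585). Il11 was thus the only member called, where 0.113% of the 12383 genes tested were called, 0.0162% higher and 0.0969% lower. The median log2 fold change was -0.58 over the 10 members and 0.01 over all genes. In the authors' deposited table the log2 fold changes were -1.72 for Il11 (adjusted p = 4.73e-17) and -1.49 for Il6 (1.77e-09), with 3.59% of genes under 0.05.

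With TNF-a present in both groups, Il6 was 3.78-fold lower in shTon_TNF than in PLKO_TNF (log2 fold change -1.92, SE 0.16, adjusted p = 0.0231), and its groups did not overlap, as for 6.89% of genes lower. Il11 was 3.55-fold lower (-1.83, SE 0.18, adjusted p = 0.0279). Both were lower in 3 of 3 sets, as were 19.8% of all genes, the log2 ratios of Il6 running from -2.15 to -1.78 and those of Il11 from -2.12 to -1.49. Both kept an adjusted p under 0.05 with any 1 set left out, the highest being 0.0122 for Il6 and 0.0219 for Il11. These 2 of 10 members passed where 0.254% of the 12213 genes tested passed, 0.115% higher and 0.139% lower. The median log2 fold change was -0.15 over the 10 members and 0.02 over all genes. In the authors' deposited table the log2 fold changes were -1.70 for Il6 (adjusted p = 4.39e-15) and -1.59 for Il11 (4.47e-13), with 3.31% of genes under 0.05. The fall of both ligands in set 1 with TNF-a, by 1.83 for Il6 and 1.49 for Il11 on the log2 scale, stood beside an Nfat5 log2 ratio of 1.41 in the same pair of libraries. Without set 1 the log2 fold change was -1.96 for Il6 (adjusted p = 6.66e-05) and -1.996 for Il11 (7.82e-05).

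Cell-type marker levels were set against each other within sets 1, 2 and 3 for the same pairs. The sum of 7 nucleus pulposus markers was 11000, 6307 and 4394 in shTon_TNF, against 8864, 6429 and 3650 in PLKO_TNF. That was higher in sets 1 and 3 and lower in set 2. In shTon_CTR it was 16770, 9990 and 6779, against 12930, 9766 and 7519 in PLKO_CTR, higher in sets 1 and 2 and lower in set 3. The endothelial marker Tek was near the floor, at 6.05 to 37.7 normalised reads. Of 10 leukocyte markers Cd14 and Cd68 were read, and they went opposite ways. Cd14 had 231.5, 657.8 and 419.4 normalised reads in shTon_TNF, against 143.9, 246.5 and 126.8 in PLKO_TNF, and 185.6, 516.9 and 450.3 in shTon_CTR, against 147.5, 327.2 and 262.2 in PLKO_CTR. Cd68 had 68.3, 19.6 and 10.6 in shTon_TNF, against 149.4, 27.8 and 59.6 in PLKO_TNF, and 65.9, 7.20 and 20.8 in shTon_CTR, against 129.3, 18.9 and 38.5 in PLKO_CTR. Cd14 was thus higher and Cd68 lower with the shRNA in each set. Of 7 cartilage markers Col11a2 and Comp were read, and their sum was 114.2, 157.1 and 122.6 in shTon_TNF, against 84.0, 47.0 and 35.5 in PLKO_TNF, and 97.0, 110.3 and 121.0 in shTon_CTR, against 57.1, 43.1 and 18.7 in PLKO_CTR, higher in each set. The sum of 10 muscle markers was 76830, 15690 and 251.3 in shTon_TNF, against 40850, 15930 and 171.2 in PLKO_TNF, higher in sets 1 and 3 and close in set 2. In shTon_CTR it was 93050, 28580 and 256.4, against 51790, 18910 and 190.4 in PLKO_CTR, higher in each set. The muscle markers did not move together in set 3. There Des had 197.8 in shTon_CTR, against 91.55 in PLKO_CTR, and 201.4 in shTon_TNF, against 81.15 in PLKO_TNF. Acta1 was lower with the shRNA in set 3, at 13.0 against 74.9 without TNF-a and 6.06 against 41.8 with it. The sum of 7 fibroblast markers was 105100, 150200 and 28030 in shTon_TNF, against 56340, 92490 and 34050 in PLKO_TNF, higher in sets 1 and 2 and lower in set 3. In shTon_CTR it was 107900, 185900 and 41090, against 70820, 156700 and 39670 in PLKO_CTR, higher in each set. Fibroblast markers split in set 3 of both pairs. Col1a1, Col1a2 and Col3a1 were higher with the shRNA there, and Pdgfra, Dcn, Lum and Thy1 were lower. With TNF-a, Pdgfra was at 4410 in shTon_TNF set 3, against 17730 in PLKO_TNF. The part of these markers in the values of Il6 and Il11 was not tested.

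Lif did not pass in either comparison of the viruses. Its log2 fold change was -0.78 without TNF-a (SE 0.24, adjusted p = 0.176) and -0.69 with TNF-a (SE 0.19, adjusted p = 0.154), lower by value in 3 of 3 sets each time. Without set 3 it passed in untreated cells (-0.98, adjusted p = 0.0277), and without set 1, the set whose shTon_TNF library goes against its label, it passed with TNF-a (-0.93, adjusted p = 0.0211). Whether Lif responded less than Il6 or Il11 was not tested.

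Among the receptors, Il6r lay on the other side of zero from its ligand. It had 181.4, 145.3 and 242.3 normalised reads in shTon_TNF, against 108.1, 97.1 and 107.8 in PLKO_TNF, and 195.0, 190.7 and 249.9 in shTon_CTR, against 117.4, 126.2 and 181.0 in PLKO_CTR. The groups did not overlap in either pair, as for 6.02% of genes higher with TNF-a and 4.77% higher without it. The log2 fold change was 0.83 with TNF-a (SE 0.22, adjusted p = 0.142) and 0.59 without it (SE 0.16, adjusted p = 0.141), so neither passed. In a fit of all 12 libraries Il6r passed with TNF-a (adjusted p = 0.0307). Its reads were few, 85 to 207 per library.

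Il6st, Osmr and Socs3 had lower ratios of shTon over PLKO in set 3 than in sets 1 and 2. Il6st had 23347, 18633 and 9407 normalised reads in shTon_TNF, against 24268, 21272 and 35427 in PLKO_TNF, and 16328, 15086 and 8145 in shTon_CTR, against 16180, 23345 and 36835 in PLKO_CTR. Its log2 ratio in set 3 was -1.92 with TNF-a and -2.18 without, in set 2 it was -0.19 and -0.64, and in set 1 it was -0.04 and 0.01. Over the 3 sets it was -0.72 with TNF-a (adjusted p = 0.367) and -0.94 without (0.265). Osmr had log2 ratios in set 3 of -0.85 with TNF-a and -1.35 without, 0.53 and -0.22 in set 2, and 0.26 and 0.00 in set 1. Socs3, the feedback inhibitor, had 563.4, 519.4 and 234.7 normalised reads in shTon_TNF, against 548.3, 516.5 and 441.2 in PLKO_TNF. In shTon_CTR it had 475.7, 534.9 and 101.5, against 491.0, 538.1 and 368.3 in PLKO_CTR, with log2 ratios of -0.05 and -0.02 in sets 1 and 2 and -1.85 in set 3. None of the 3 genes passed in either pair, the lowest adjusted p being 0.265 for Il6st, 0.329 for Osmr and 0.382 for Socs3, all without TNF-a. The shRNA target Nfat5 had log2 ratios of -0.59, -1.58 and -2.655 in sets 1, 2 and 3 without TNF-a, lowest in set 3. With TNF-a they were 1.41, -1.12 and -1.06. Set 3 is also the set with the lowest summed muscle, fibroblast and nucleus pulposus markers in every group. Single markers went the other way. The fibroblast marker Pdgfra was at 17730 in set 3 of PLKO_TNF, against 3131 and 3587 in sets 1 and 2. The muscle marker Des was at 201.4 in set 3 of shTon_TNF, against 39.3 in set 2. The part of the markers and of Nfat5 in the set 3 values was not tested. Il11ra1, Lifr and Stat3 had log2 fold changes between -0.12 and 0.35 in the pair of comparisons, with adjusted p of 0.522 or more. Over the 12 libraries Lifr ran from 47.1 to 154.9 normalised reads and Stat3 from 3302 to 5617.

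**Figure D3:**
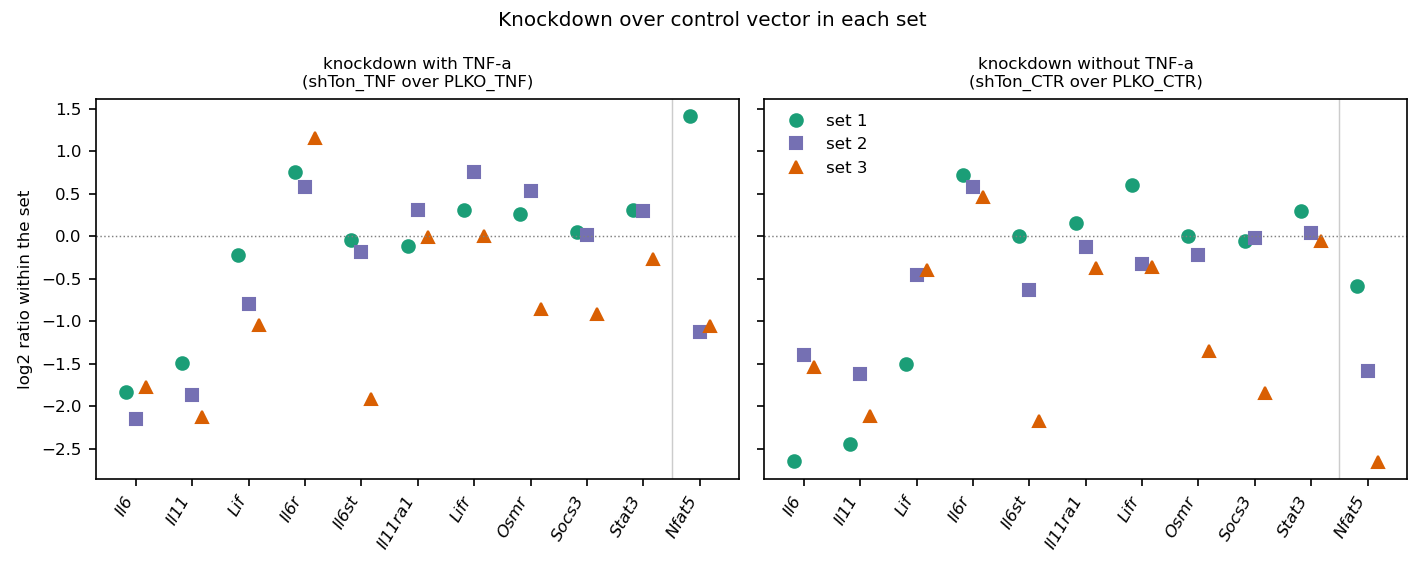
Log2 ratio of shTon over PLKO for each member in each of the 3 sets, with and without TNF-a. Il6 and Il11 are below zero in all 3 sets, while Il6st, Osmr and Socs3 are low in set 3, at -2.18, -1.35 and -1.85 without TNF-a.

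Of 61 other genes of the pathway taken as lists, Nfat5 among them, 54 were listed and 52 or 53 were tested. In PLKO cells TNF-a raised 9 and lowered 3 of 53, where 4.97% of all genes were called higher and 4.65% lower, shares against which the counts of each list also stand. Among the regulators of Il6 transcription and mRNA decay, 4 of 12 rose, with the AP-1 subunit gene Fosl1 higher by a log2 fold change of 1.70 (SE 0.27, adjusted p = 0.0177) and the NF-kB inhibitor gene Nfkbia by 1.48 (SE 0.12, adjusted p = 0.00218). Among 19 known STAT3 targets 3 rose and 1 fell. Timp1, a metalloproteinase inhibitor, was higher by 1.10 (adjusted p = 0.00767), and Cebpd, a transcription factor gene, fell by 1.89 (adjusted p = 0.00351). Among 10 inhibitors and sheddases 1 rose, and Ptpn6, a phosphatase gene, fell by 1.09 (adjusted p = 0.0371), a call lost without set 1 (0.0533) or set 2 (0.141). Of 4 other ligands and soluble receptors tested, only Clcf1 rose, by 1.02 (adjusted p = 0.0341, without set 2 0.0528). Clcf1 encodes a ligand of the CNTF receptor and is named here after its values were seen.

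In shTon cells TNF-a raised 8 and lowered 2 of the 52 pathway genes tested, where 1.95% of all genes were called higher and 1.33% lower. Nfkbia was higher by a log2 fold change of 1.65 (SE 0.12, adjusted p = 0.00138), Fosl1 by 1.19 (SE 0.14, adjusted p = 0.00815), Myc, a growth-promoting transcription factor gene, by 1.13 (adjusted p = 0.00978) and Nfkb1, an NF-kB subunit gene, by 0.98 (adjusted p = 0.00884). Cebpd fell by 1.40 (adjusted p = 0.0223). In a fit of all 12 libraries the calls of Fosl1 and Cebpd were lost, both at an adjusted p of 0.0534. The median log2 fold change of the 19 STAT3 targets was 0.00 in shTon cells and -0.23 in PLKO cells, against -0.01 over all genes in each. With the TonEBP shRNA, 0 of 52 passed without TNF-a by limma, with 12 at an unadjusted p under 0.05. There edgeR called 0 and DESeq2 called 4. With TNF-a, limma and edgeR each called 1 of 53 and DESeq2 called 5, with 11 at an unadjusted p under 0.05 by limma. Over all genes, limma called 0.113% without TNF-a and 0.254% with it, and DESeq2 called 411 and 363 genes. By limma, 2108 of 12383 genes had an unadjusted p under 0.05 without TNF-a, and 2079 of 12213 with it.

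**Figure D4:**
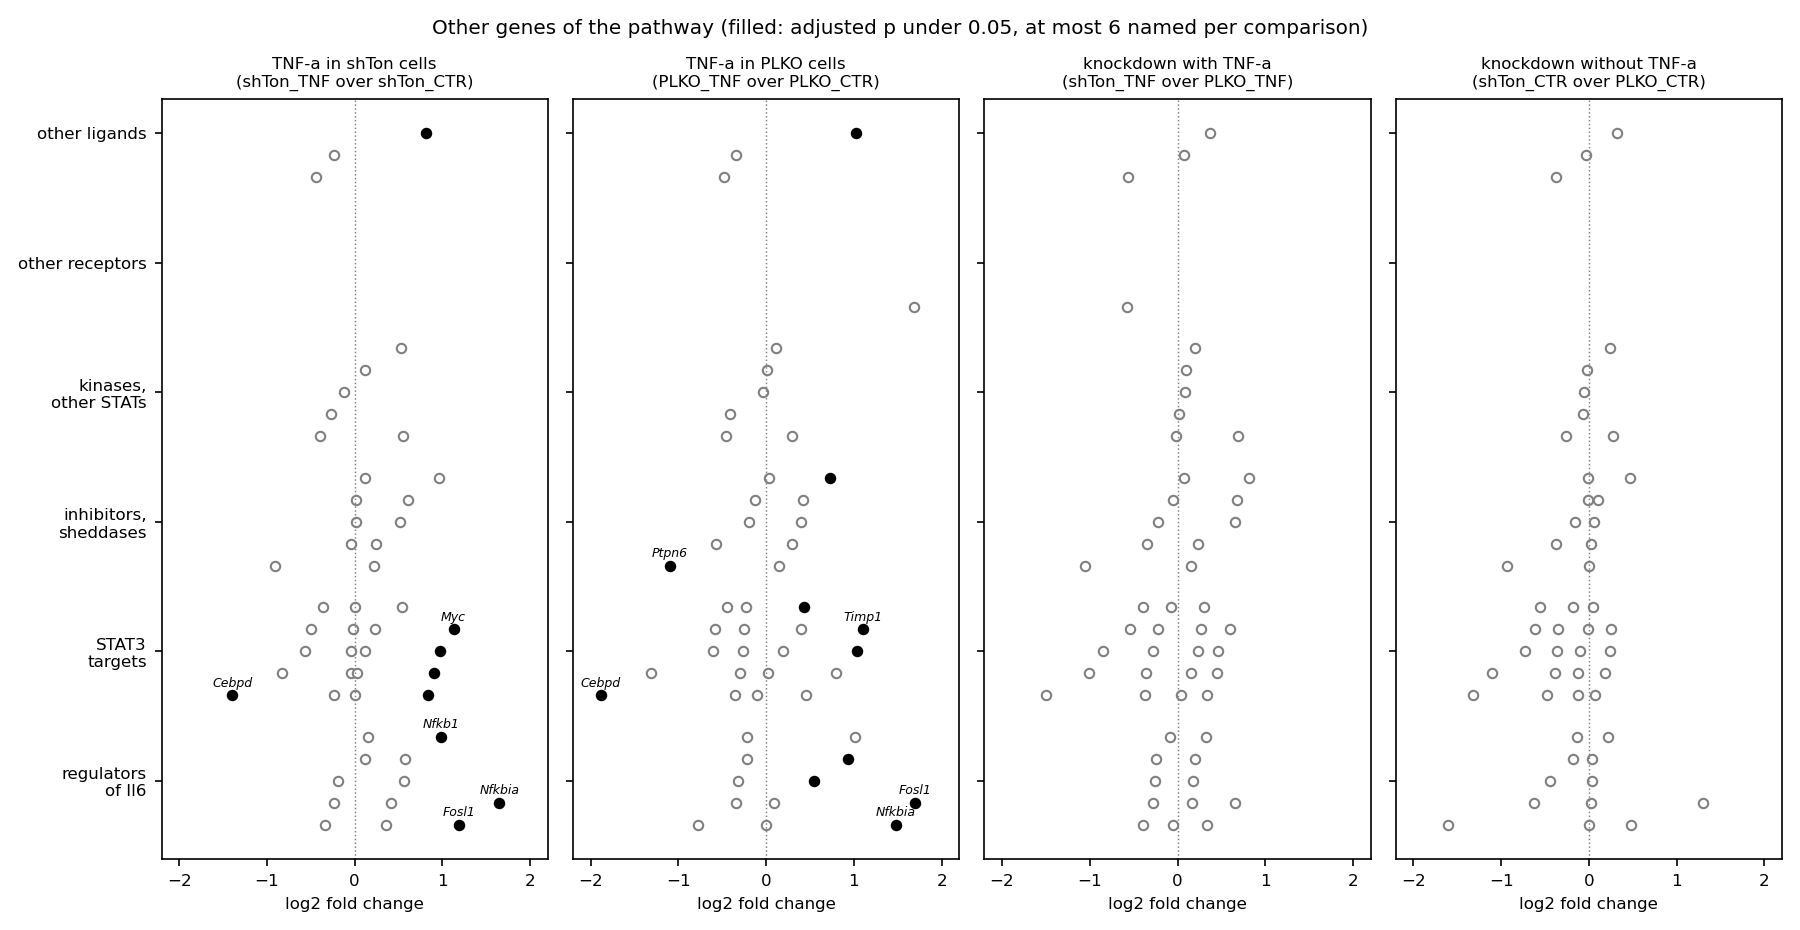
Log2 fold changes of the pathway genes reported here in 6 lists, a point for each gene, filled where the adjusted p was under 0.05. In the panels of TNF-a Nfkbia is at 1.65 in shTon cells and 1.48 in PLKO cells.

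The members were also compared library by library. Over the 12 libraries, with set means removed and log2 values used, Pearson's r between Il6 and Il11 was 0.960 and that between Il6 and Il6r was -0.902. They were the highest and the lowest of all pairs of members. Other pairs came close, with 0.919 for Il11 and Lif, -0.875 for Lif and Il11ra1 and -0.855 for Il11 and Il6r. These are descriptions of 12 libraries that share treatments and sets. Of 9287 genes compared in the same way, those closest to Il6 were Cct6a (r = 0.980), U2af2 (0.980) and Utp23 (0.977). Those closest to Il11 were Tnip3 (0.986), Cxcl2 (0.984) and Mmd (0.984), and those closest to Lif were Myc (0.992), Adamts8 (0.986) and Tns3 (0.983). Likeness of pattern did not mean likeness of size, since Cct6a differed by a log2 fold change of -0.65 with the shRNA and TNF-a (adjusted p = 0.141), where Il6 fell by 1.92. Cxcl2, a neutrophil-attracting chemokine, fell by 2.15 in that comparison (adjusted p = 0.0279) and was higher by 3.65 with TNF-a in PLKO cells (adjusted p = 0.0158).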

How the data were processed

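Per the submitters' processing notes, reads were aligned with Novoalign 2.08.01 to the rat genome build rn5 and DESeq2 was used. No source used here states the model the authors fitted, whether it drew fold changes toward zero, or whether counting used strand. In each deposited pair the deposited log2 fold changes of Il6, Il11 and Lif were smaller in size than those of limma and DESeq2 here. The authors deposited 3 tables of 13373, 13305 and 13176 genes, 1 for each of 3 pairs of groups, holding per-library normalised signal, a log2 fold change and an adjusted p-value.

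Every deposited signal value was a whole number of reads (100% within a tolerance of 0.001 read) divided by 1 size factor per library. Libraries in 2 tables held equal reads. The reads of the 12 libraries were rescaled together over 12899 shared genes. Tests used limma 3.58.1 in R 4.3.3 on log2(value + 1) with a mean-variance trend, genes with a mean of at least 10, Benjamini-Hochberg adjustment over all genes tested and a call at an adjusted p under 0.05. Adding 1 slightly understates the change of low genes. The set entered as a block. Same-set libraries deviated from their group means together (correlations of 0.6095 to 0.8889 over 18 pairs, against -0.7406 to 0.1796 over 36 pairs of different sets, 12310 genes). Same-group libraries differed by more than sampling noise (chi-square per degree of freedom 73.3 or more).

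The members, gene lists, block and alternatives were chosen with earlier results of these data known. Those included an account that a DESeq2 refit came close to the authors' fold changes only with the set as a term, which was not rerun here, and that few genes pass without it. Every member is described. Other pathway genes are named where they passed, at most 6 per comparison by size of log2 fold change, and for each ligand the 3 genes of closest pattern among those with a mean of at least 100 are named. Alternatives used edgeR 4.0.16 and DESeq2 1.42.0 on the recovered read counts, other pseudocounts, filters, scalings and fits. The fits were also run on simulated counts with the same spread for every gene. That setting differs from the real libraries, so it cannot show how often the fits call genes falsely here. The total reads limit precision as given with the levels. Intervals are 95%. Results for 2 genes of the pathway lists are not reported here or plotted, though they enter the counts.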

Additional observations from a re-analysis of the deposited data

How the results depend on the processing

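Over all alternatives the single-gene results stayed on the same side of the threshold in 536 cases, lost a call in 25, gained one in 12 and changed sign in 21. Most of these cases are of genes that had not passed and so could lose no call. Those that could were 4 members with TNF-a in PLKO cells, 3 in shTon cells, 1 with the shRNA alone and 2 with the shRNA and TNF-a. Without the replicate block, limma called 0 members in each comparison, and 0 genes with TNF-a in PLKO cells, 6 in shTon cells and 0 with the shRNA, with or without TNF-a. Without the mean-variance trend it called 0 members and 55 genes with TNF-a in PLKO cells, 143 genes in shTon cells, and 0 members and 0 genes in both comparisons of the shRNA. The calls of Il6 and Il11 with the shRNA thus depend on pairing libraries by set and on the trend. DESeq2 with the set called 627 genes with TNF-a in shTon cells, 411 genes and 2 members with the shRNA alone, and 363 genes with the shRNA and TNF-a. Fitting all 12 libraries called 696 genes with TNF-a in PLKO cells, 3 genes and 0 members with the shRNA alone, and 444 genes with the shRNA and TNF-a. On the recovered reads edgeR with the set called 1205 genes with TNF-a in PLKO cells, 403 in shTon cells, 18 with the shRNA alone and 29 with the shRNA and TNF-a. A pseudocount of 0.1 called 2 genes with the shRNA alone and 12 with the shRNA and TNF-a. The interaction value of Il6 was 0.0479 with edgeR and 0.0448 with DESeq2, opposite in sign to the value in the report. The cause was not tested.

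Leaving out each set in turn, the members called with TNF-a in PLKO cells ran from 2 to 5 and all genes called from 545 to 1410. In shTon cells 3 members were called each time, with 317 to 1105 genes. With the shRNA alone 2 to 3 members and 12 to 283 genes were called, and with the shRNA and TNF-a 2 to 3 members and 32 to 488 genes. Log2 fold changes that changed sign were those of Il6st (-0.095 to 0.26) and Lifr (-0.64 to 0.10) with TNF-a in PLKO cells, and of Osmr (-0.30 to 0.13) and Nfat5 (-0.091 to 1.01) in shTon cells. With the shRNA alone they were those of Il11ra1 (-0.25 to 0.014), Lifr (-0.35 to 0.14) and Stat3 (-0.0077 to 0.16). With the shRNA and TNF-a they were those of Il11ra1 (-0.067 to 0.14), Osmr (-0.30 to 0.39), Socs3 (-0.45 to 0.031) and Nfat5 (-1.09 to 0.18). For the interaction they were those of Il6 (-0.50 to 0.28), Il11 (-0.13 to 0.47), Lif (-0.51 to 0.45), Il6r (-0.00017 to 0.36) and Stat3 (-0.10 to 0.13). None of these passed in the report, and of them only Nfat5 with the shRNA and TNF-a passed with a set left out (adjusted p = 0.00941 without set 1).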
